A study of Salmo salar with 72 samples.

Results

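Vimentin (vim, ENSSSAG00000073113) and the integrin beta-3 subunit gene itgb3a (ENSSSAG00000046837) were followed in the distal intestine (DI) and the spleen of Atlantic salmon, Salmo salar. Both genes were taken because the study had named them when it described these same libraries, so their tests are not independent evidence of a diet response. They were 2 of the 69389 genes in the count tables. The salmon were kept in seawater and fed for 42 days on 1 of 6 diets, and 6 fish per diet gave 1 RNA-seq library from each tissue, which made 72 libraries from 36 fish. Soybean meal, which is known to inflame the salmon DI, made up 30% of 5 of the diets. AWA and IWA carried the yeast Wickerhamomyces anomalus in autolyzed and in inactivated form. ACJ and ICJ carried the yeast Cyberlindnera jadinii in the same forms, and SBM carried no yeast. Both forms were spray-dried. The FM diet was based on fishmeal and served as the control. As inferred from the fish numbers, the 6 fish of a diet came from 3 tanks with 2 fish each, so fish of a diet were not fully independent, and the p-values measure the spread between fish.

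Vimentin is the intermediate filament protein of mesenchymal cells such as fibroblasts, endothelial cells and leucocytes in mammals, and it is not a protein of resting epithelium. Integrin beta-3 is 1 chain of a cell-surface receptor that binds fibronectin, fibrinogen and vitronectin. In mammals it pairs with integrin alpha-IIb on platelets and with integrin alpha-v on endothelium and other cells, and both receptors are known from clotting and wound closure. In bulk tissue a change in the number of cells of a type and a change of RNA per cell cannot be told apart.

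On the Ssal_v3.1 assembly, vim lies on the minus strand of chromosome 19 from 15232759 to 15240820, with 2281 exonic bases in 8 exon blocks. It matched the RefSeq gene vim over 99.95% of its span. The gene itgb3a lies on the plus strand of chromosome 6 from 41764350 to 41794376, with 6002 exonic bases in 23 exon blocks. Its RefSeq record, LOC106607266, shares 78.57% of the span and has no symbol in the reference table, so the name itgb3a is the study's. Neither span overlapped another annotated gene, and read pairs had been counted by strand. The itgb3a span starts 6436 bases before its RefSeq record and 56 bases from the neighbouring gene LOC100195920. Whether reads from that stretch add to its counts was not tested. No other gene matched the name of vimentin or integrin beta-3, but only 8800 genes had a symbol, and reads that might have been divided with a duplicate copy of either gene are an uncertainty of these counts.

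Library totals ran between 6976621 and 30857656 counts in the DI (median 18070953) and between 15062129 and 35187924 in the spleen (median 21651522), and no pair of libraries held identical counts. The tissue labels were checked on markers: the summed level of 3 enterocyte genes was 356 to 2920 CPM (counts scaled to library size) in the DI and 0.992 to 18.2 CPM in the spleen, and that of 3 erythrocyte genes was 3.50 to 97.2 CPM in the DI and 1028 to 3503 CPM in the spleen. Most of the DI enterocyte sum was cdh17 (mean 1950 CPM, against 133 CPM for cdx1b and 27.2 CPM for slc15a1). Of the 3 erythrocyte genes, slc4a1b did not separate the tissues, with no counts in any of the 36 DI libraries or in 30 of the 36 spleen libraries. Most of the spleen erythrocyte sum was alas2 (mean 1890 CPM, against 78.6 CPM for epor). The DI library of ICJ fish 4 had the lowest enterocyte sum of its tissue, 356 CPM, and results that turned on it are given with and without it. According to the file headers, the DI libraries of FM fish 3, 4 and 5 were counted from a subfolder, unlike those of all other fish.

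The DI level of itgb3a was low and uniform in fish fed FM and higher and more variable in fish fed soybean meal. In AWA fish 1 to 6 the gene had 12.7, 10.04, 7.47, 2.23, 7.06 and 3.71 CPM, against 1.89, 1.19, 1.72, 1.31, 1.61 and 1.44 CPM in FM fish 1 to 6. All 6 AWA fish were above all 6 FM fish, which was true of 3.78% of the 32157 genes tested in the DI. The means were 7.20 ± 3.88 CPM in AWA fish and 1.52 ± 0.263 CPM in FM fish (SD, n = 6 each). The 6 FM values rest on 18 to 34 counts each.

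In IWA fish itgb3a had 2.78, 4.50, 5.25, 12.8, 3.26 and 6.07 CPM, and in ICJ fish 4.04, 3.27, 4.88, 2.20, 4.65 and 2.93 CPM. Both sets lay wholly above the FM fish, beside 1.46% of all genes for IWA|FM and 0.202% for ICJ|FM. In SBM fish the values were 1.501, 10.5, 2.41, 5.81, 2.77 and 4.29 CPM, and 5 of these 6 exceeded the highest FM fish. In ACJ fish they were 2.15, 8.38, 6.48, 0.825, 1.01 and 3.16 CPM, with 4 fish above all FM fish and 2 fish below them all. The ACJ diet was thus the only soybean diet with fish under the FM range in CPM. These 2 fish had 15 and 21 counts, beside 18 to 34 in FM fish, so the gap is small against counting noise. The coefficient of variation was 84.4% in ACJ, 72.4% in SBM, 63.0% in IWA, 53.9% in AWA, 28.4% in ICJ and 17.3% in FM fish.

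By its mean DI level, itgb3a was ordered AWA, IWA (5.77 ± 3.63 CPM), SBM (4.55 ± 3.30 CPM), ACJ (3.67 ± 3.09 CPM), ICJ (3.66 ± 1.04 CPM) and FM. Each gap between neighbours in this order was smaller than the larger of their SDs, apart from that between ICJ and FM. The tank means were 4.85 to 11.4 CPM in AWA, 3.64 to 9.00 CPM in IWA, 2.08 to 5.26 CPM in ACJ, 3.54 to 3.79 CPM in ICJ and 3.53 to 6.01 CPM in SBM, against at most 1.54 CPM in FM.

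Vimentin was also lowest on average in FM fish, with more overlap between diets. AWA fish 1 to 6 had 50.1, 30.9, 129, 63.7, 78.9 and 48.9 CPM, against 22.1, 28.3, 16.8, 11.8, 11.1 and 15.3 CPM in FM fish 1 to 6. AWA was the only diet whose 6 fish were all above all 6 FM fish, which held for 3.78% of the genes tested. The means were 66.9 ± 34.4 CPM in AWA fish and 17.6 ± 6.59 CPM in FM fish (SD, n = 6 each). The FM libraries counted from the subfolder (16.8, 11.8 and 11.1 CPM) were lower in vim than FM fish 1 and 2 and, for 2 of the 3, than FM fish 6. No other diet had libraries from the subfolder, and its part in the differences from FM was not tested.

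In ICJ fish vim had 75.9, 14.9, 71.4, 61.7, 83.0 and 27.8 CPM, in 4 of 6 fish above all FM fish. In IWA fish it had 42.4, 29.2, 17.6, 127, 11.8 and 98.1 CPM, again with 4 of 6 above. IWA thus held both values within the FM range and one of the highest of the tissue, and had the largest coefficient of variation, 86.7%, against 37.6% in FM fish. In SBM fish the values were 84.3, 29.4, 29.2, 16.7, 30.8 and 43.9 CPM, with 5 of 6 above all FM fish, and in ACJ fish 61.0, 26.3, 67.6, 12.5, 28.8 and 19.4 CPM, with 3 of 6 above. The means ran AWA, ICJ (55.8 ± 27.9 CPM), IWA (54.3 ± 47.1 CPM), SBM (39.0 ± 23.8 CPM), ACJ (35.9 ± 22.8 CPM) and FM, and no neighbours in this order differed by more than the larger of their SDs. The tank means were 40.5 to 96.4 CPM in AWA, 35.8 to 72.2 CPM in IWA, 24.1 to 43.6 CPM in ACJ, 45.4 to 66.5 CPM in ICJ and 22.9 to 56.8 CPM in SBM, against at most 25.2 CPM in FM.

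**Figure D1:**
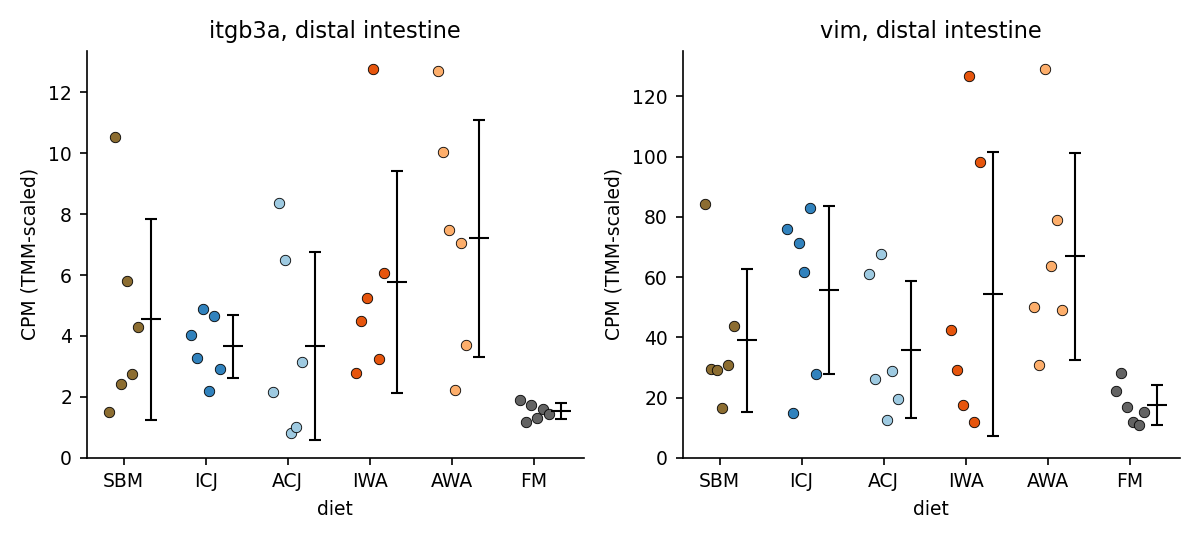
Level of itgb3a (left) and vim (right) in each distal intestine library, in TMM-scaled CPM on linear axes from 0, by diet. Points are fish, and the bar beside them is the mean ± SD of 6 fish. The FM points of itgb3a lie between 1.19 and 1.89 CPM, below all AWA, IWA and ICJ points, and for vim only the AWA points all lie above the highest FM point of 28.3 CPM.

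Both genes were up-regulated in AWA|FM. With edgeR's quasi-likelihood test and Benjamini-Hochberg adjustment over all 32157 genes, itgb3a was 4.71-fold higher (log2 fold change 2.24, SE 0.50, 95% interval 1.22 to 3.26, adjusted p = 0.0189). For vim the fold was 3.81 (log2 fold change 1.93, SE 0.52, 95% interval 0.88 to 2.98, adjusted p = 0.0359). This comparison called 3.41% of all genes. The call of itgb3a was lost without AWA fish 1 (adjusted p = 0.0556). The call of vim was lost without any 1 of FM fish 1, 4, 5 and 6 or of AWA fish 1, 3, 4 and 5 (adjusted p up to 0.0995), and with no filter on low counts (adjusted p = 0.0589). Its log2 fold change also fell short of the study's further limit of 2, which itgb3a passed.

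The 4 other soybean diets gave no call for either gene. In IWA|FM, where 0.308% of genes were called, the log2 fold change was 1.92 for itgb3a (95% interval 0.91 to 2.94, adjusted p = 0.0648) and 1.63 for vim (adjusted p = 0.106, edgeR quasi-likelihood test). DESeq2 called both of these (adjusted p = 0.0113 for itgb3a and 0.0454 for vim), among 1028 of 34854 genes that it called there. With the counts of each tank summed, edgeR also called both in IWA|FM, among 1349 of 35019 genes. A fit of only the 12 IWA and FM libraries called itgb3a there, among 426 of 29582 genes. Leaving out the DI library of ICJ fish 4 or of ACJ fish 4 also brought a call of itgb3a in IWA|FM, among 604 of 32436 and 248 of 32518 genes. In ICJ|FM the log2 fold changes in the edgeR fit were 1.26 (adjusted p = 0.280) for itgb3a and 1.67 (adjusted p = 0.175) for vim, with 0.0466% of genes called by edgeR. In SBM|FM they were 1.58 (adjusted p = 0.298) for itgb3a and 1.15 (adjusted p = 0.506) for vim, with 0.0187% called by edgeR. In ACJ|FM they were 1.26 (adjusted p = 0.964) for itgb3a and 1.03 (adjusted p = 1.00) for vim, with 0.00311% called by edgeR. All 10 estimates were above 0, but the 5 comparisons share the 6 FM fish. The study had described both as wound healing genes that ICJ and ACJ activated. In ICJ|FM and ACJ|FM neither was called here by edgeR or DESeq2.

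The mean of the 5 soybean diets was set against FM to ask about soybean meal with or without yeast. By the study's formulation, FM also differed from them in other ingredients, such as more fishmeal and added cellulose. Soybean meal cannot be told apart from these here. It was 3.14-fold higher for itgb3a (log2 fold change 1.65, SE 0.43, 95% interval 0.79 to 2.52, edgeR adjusted p = 0.0344), in a comparison that called 1.95% of genes. The value for vim was 1.48 on the log2 scale (SE 0.43, 95% interval 0.60 to 2.36) and missed the threshold (edgeR adjusted p = 0.0670). The itgb3a call was lost without any 1 of the 6 FM fish (adjusted p up to 0.0880). DESeq2 called vim as well (adjusted p = 0.00942), among 1247 of 36843 genes that it called. So did edgeR with the counts of each tank summed, among 2330 of 35019 genes. A test for any difference among the 6 diets called 0.379% of genes and neither of these (edgeR adjusted p = 0.144 for itgb3a and 0.226 for vim).

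Two-sided exact permutation tests of each gene alone, with 6 fish on each side and on the log2 CPM scale, gave p = 0.00216 for itgb3a in AWA|FM, IWA|FM and ICJ|FM, which is the smallest p this design allows. For itgb3a the exact permutation p was 0.00866 in SBM|FM and 0.208 in ACJ|FM. For vim it was 0.00216 in AWA|FM, 0.0152 in SBM|FM, 0.0195 in ICJ|FM, 0.0671 in IWA|FM and 0.0887 in ACJ|FM. With both tissues 20 such tests were run, and their p-values are adjusted neither for these nor for the other genes, so those just under 0.05 are weak.

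**Figure D2:**
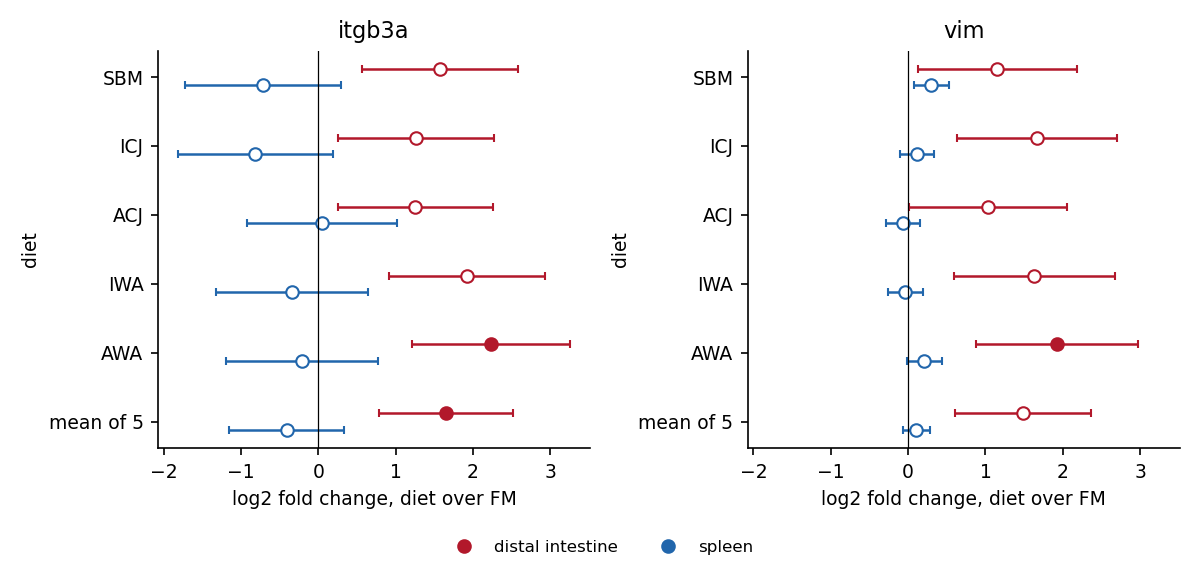
Log2 fold change of itgb3a (left) and vim (right) for each soybean diet and for the mean of the 5, over FM, with 95% intervals from the edgeR fit. Distal intestine estimates are red and spleen estimates blue, and filled points had an adjusted p under 0.05. The filled points are AWA for both genes and the mean of 5 for itgb3a (1.65), all in the distal intestine.

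Yeast and yeast form were compared within the soybean diets in the DI, and neither gene was called. By the study's formulation, the yeast diets also held less fishmeal than SBM. For AWA|SBM the log2 fold change was 0.66 for itgb3a (95% interval -0.30 to 1.63) and 0.78 for vim (95% interval -0.24 to 1.80). IWA|SBM gave 0.35 for itgb3a and 0.48 for vim, ICJ|SBM gave -0.31 for itgb3a and 0.52 for vim, and ACJ|SBM gave -0.32 for itgb3a and -0.12 for vim. The autolyzed form was set against the inactivated form of each yeast in AWA|IWA, with 0.31 for itgb3a (95% interval -0.64 to 1.27) and 0.30 for vim (95% interval -0.71 to 1.31). In ACJ|ICJ the values were -0.00 for itgb3a (95% interval -0.97 to 0.97) and -0.64 for vim (95% interval -1.65 to 0.38). In all 6 DI comparisons edgeR called 0% of genes, with 324 to 2240 genes at an unadjusted p under 0.05, and DESeq2 called 2 to 76 genes.

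In the spleen itgb3a was near the limit of detection, with 1 to 22 counts per library, and vim was abundant and even. In AWA fish itgb3a had 0.600, 0.315, 0.240, 0.743, 0.339 and 0.429 CPM, against 0.529, 0.523, 0.196, 0.716, 0.867 and 0.306 CPM in FM fish. The other means were 0.546 ± 0.320 CPM in ACJ, 0.410 ± 0.429 CPM in IWA, 0.311 ± 0.126 CPM in SBM and 0.289 ± 0.124 CPM in ICJ fish, beside 0.444 ± 0.191 CPM in AWA and 0.523 ± 0.249 CPM in FM fish (SD, n = 6 each). No neighbours in the order of these means differed by more than the larger of their SDs, and the groups overlapped throughout. The diet|FM log2 fold changes of itgb3a in the spleen were -0.21 in AWA, -0.34 in IWA, 0.05 in ACJ, -0.82 in ICJ and -0.71 in SBM, with a mean of -0.41 (95% interval -1.15 to 0.34).

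Vimentin in the spleen had 133, 137, 154, 135, 124 and 116 CPM in AWA fish, and 103, 160, 150, 134, 139 and 163 CPM in SBM fish, against 134, 107, 117, 121, 97.1 and 112 CPM in FM fish. The coefficients of variation over the 6 diets were 9.62 to 15.4%, so that the same gene varied far less between spleens than between intestines. SBM|FM gave a log2 fold change of 0.30 for vim (SE 0.11, unadjusted p = 0.0100, edgeR adjusted p = 0.527), with 5 of 6 SBM fish above all FM fish. AWA|FM gave 0.21 (edgeR adjusted p = 0.569), ICJ|FM 0.12, IWA|FM -0.04 and ACJ|FM -0.07. The exact permutation p of vim was 0.0368 in SBM|FM and 0.0325 in AWA|FM, before any adjustment. In none of the 5 diets, their mean or the test over all 6 diets did edgeR call a gene in the spleen (0% of 32144 genes in each, with 1645 to 3232 at an unadjusted p under 0.05), while DESeq2 called 4 to 25 genes in the diet|FM comparisons and neither vim nor itgb3a.

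**Figure D3:**
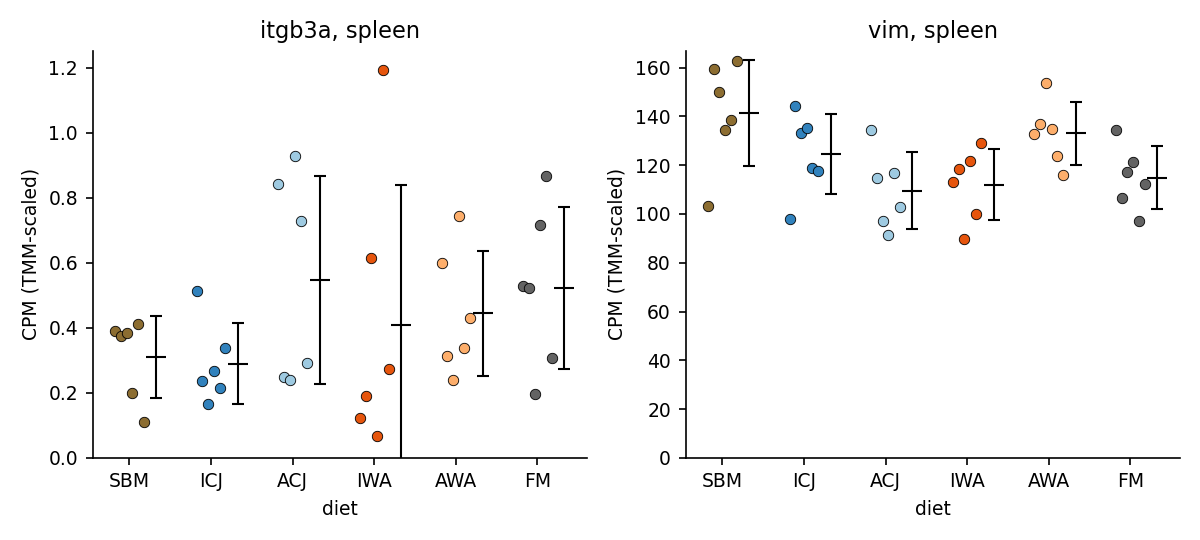
Level of itgb3a (left) and vim (right) in each spleen library, in TMM-scaled CPM on linear axes from 0, by diet. Points are fish, and the bar beside them is the mean ± SD of 6 fish. For itgb3a no point exceeds 1.19 CPM and all diets overlap, and for vim the points lie between 89.7 and 163 CPM.

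The 2 tissues of each fish were then compared, with fish as a block. The level of itgb3a was 10.6-fold higher in the DI than in the spleen (log2 fold change 3.40, SE 0.25, edgeR adjusted p = 8.72e-15), with the DI higher in 36 of 36 fish. That of vim was lower in the DI (log2 fold change -1.54, SE 0.15, edgeR adjusted p = 2.12e-11), in 35 of 36 fish. The exception was an IWA fish. The tissues differ in 87.4% of the 35067 genes tested, so that a call by itself is no distinction here.

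By diet, the DI over spleen difference of itgb3a was 4.07 on the log2 scale in AWA, 4.10 in IWA, 2.65 in ACJ, 3.90 in ICJ and 3.86 in SBM fish, against 1.84 in FM fish. For vim it was -0.91 in AWA, -1.32 in IWA, -1.62 in ACJ, -1.08 in ICJ and -1.78 in SBM fish, against -2.54 in FM fish. The FM fish thus had the smallest gap for itgb3a and the widest for vim. Whether a diet effect differed between the tissues was tested as an interaction. For AWA|FM it was 2.24 for itgb3a (edgeR adjusted p = 0.140) and 1.64 for vim (edgeR adjusted p = 0.0815), where 1.34% of genes were called. For the mean of the soybean diets it was 1.88 for itgb3a (edgeR adjusted p = 0.145) and 1.21 for vim (edgeR adjusted p = 0.124), with 0.644% called. The interaction called 0.0057% of genes for IWA|FM, 0.00285% for ICJ|FM, 0.00285% for ACJ|FM and 0% for SBM|FM (3192 genes at an unadjusted p under 0.05), with adjusted p from 0.225 to 0.956 for both genes. DESeq2 with the fish block called the AWA|FM interaction of vim (adjusted p = 0.0336) and not that of itgb3a (adjusted p = 0.0710). It called 1521 of 31806 genes there. For the mean of the soybean diets, edgeR without the fish block called the interaction of itgb3a (adjusted p = 0.0411), among 472 of 35067 genes called. The call thus depended on the fit.

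**Figure D4:**
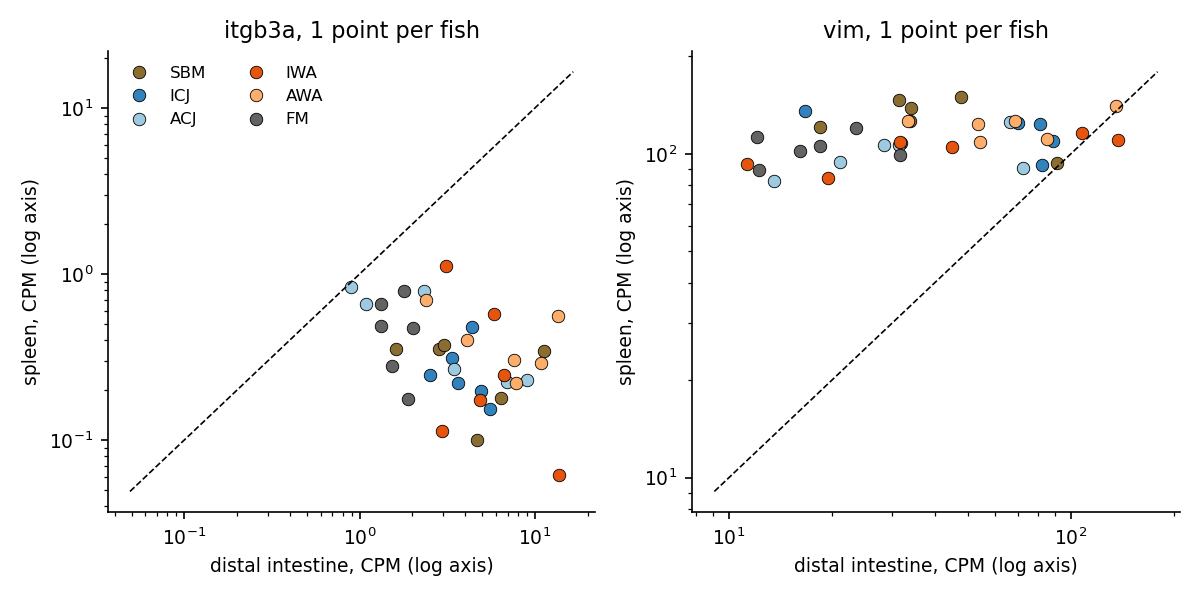
Spleen level against distal intestine level of itgb3a (left) and vim (right), 1 point per fish, in CPM on log axes, with the line of equal levels dashed. All 36 points of itgb3a lie below the line, and 35 of 36 points of vim lie above it.

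Per length of transcript, vim was the more abundant of the pair in every library. Its mean was 21.4 FPKM in the DI, at the 91.3 percentile of genes, and 49.4 FPKM in the spleen, at the 97.6 percentile. The mean of itgb3a was 0.794 FPKM in the DI, at the 34.0 percentile, and 0.0646 FPKM in the spleen, at the 8.36 percentile. The ratio of vim to itgb3a in FPKM was 7.35 to 148 in the DI (median 28.6) and 221 to 4750 in the spleen (median 964).

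Across the 36 fish, 4 relations between log2 levels were computed, with permutation p-values adjusted over the 4. The DI level of itgb3a was inversely related to its spleen level (Pearson's r = -0.47, p = 0.00453, adjusted p = 0.0128; Spearman's rho = -0.46, p = 0.00474, adjusted p = 0.0105, by permutation). Spleen levels of itgb3a, here and in its relation to vim below, rest on 1 to 22 counts per library. For itgb3a between the tissues, r was -0.48 without the 2 fish farthest from the median, and within diets it was -0.48. In the DI, vim and itgb3a were higher in the same fish (r = 0.45, permutation p = 0.00642, adjusted p = 0.0128; rho = 0.46, p = 0.00527, adjusted p = 0.0105). Without the 2 outlying fish r was 0.35 (adjusted permutation p = 0.0878), and within diets it was 0.18 (adjusted permutation p = 0.319), so that the relation rested in part on those fish and did not hold within diets. In the spleen, vim and itgb3a had r = -0.35 (permutation p = 0.0370, adjusted p = 0.0493; rho = -0.29, p = 0.0859, adjusted p = 0.0930), and r was -0.25 without the 2 outlying fish (adjusted permutation p = 0.202), -0.35 within diets (adjusted permutation p = 0.0708) and -0.34 without ICJ fish 4 (adjusted permutation p = 0.0574). The DI and spleen levels of vim had r = 0.27 (permutation p = 0.108, adjusted p = 0.108; rho = 0.29, p = 0.0930, adjusted p = 0.0930) and 0.21 without the 2 outlying fish. With the log2 library total, r was 0.43 for vim and 0.32 for itgb3a in the DI, and -0.35 for vim and 0.11 for itgb3a in the spleen. The DI libraries held 17422304 to 30409474 counts in AWA fish and 12809583 to 20441787 counts in FM fish. The part of depth in these relations and in the diet differences was not tested.

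**Figure D5:**
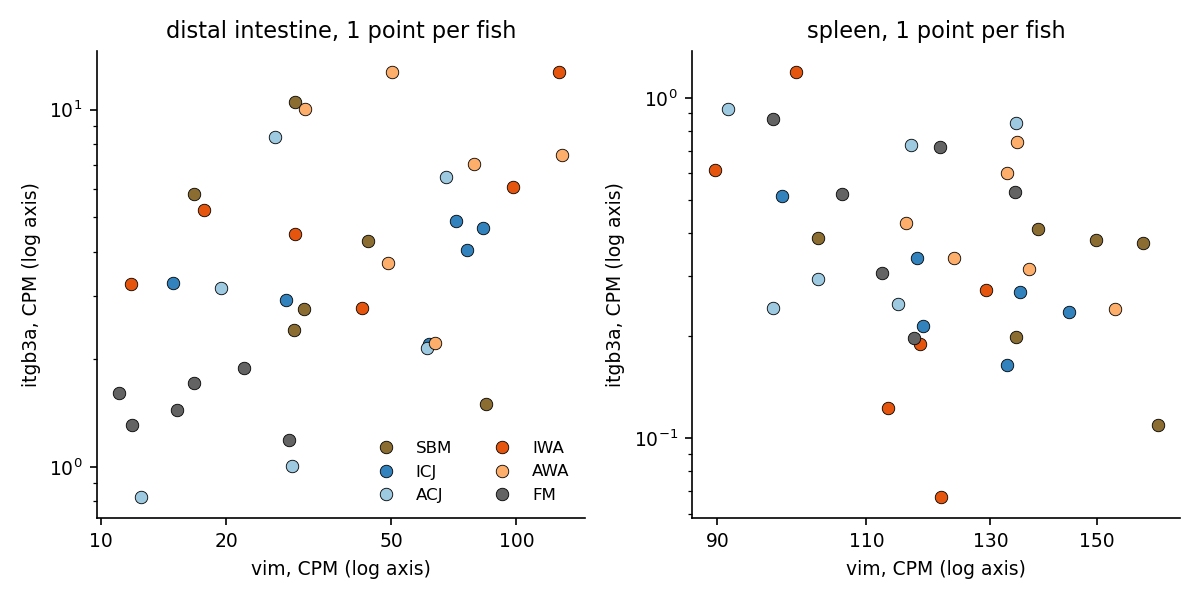
Level of itgb3a against that of vim in the distal intestine (left) and the spleen (right), 1 point per fish, in CPM on log axes, coloured by diet. The 6 FM points stand at the lower left of the distal intestine panel, and within the diets r was 0.18 there, while the spleen panel has r = -0.35.

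The genes that work with these proteins were described by lists for the intermediate filaments, integrins, integrin adhesion complex, ligands and matrix, and wound repair. Integrin alpha-IIb, itga2b (ENSSSAG00000050579), which forms the platelet fibrinogen receptor with beta-3 in mammals and marks fish thrombocytes, was distributed the other way from itgb3a. It had 0.225 to 14.7 CPM in the DI (median 1.09) and 254 to 535 CPM in the spleen (median 392), a DI over spleen log2 fold change of -8.04 (SE 0.28, edgeR adjusted p = 5.15e-24). Per length, itga2b was above itgb3a in 10 of 36 intestines and in 36 of 36 spleens, at a median of 0.322 FPKM in the DI and 100 FPKM in the spleen. Across the spleens itga2b had r = -0.60 with itgb3a and 0.67 with vim, over 36 libraries that share their depth scaling. The value for itgb3a rests on its 1 to 22 counts per spleen library. Integrin alpha-v was not matched by name.

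Among the 6 matched intermediate filament genes, 5 were tested in the DI, and 1 rose in AWA|FM, where 3.41% of all genes were called and 7770 of 32157 had an unadjusted p under 0.05. This was plecb (ENSSSAG00000038733), a plectin, which ties intermediate filaments to the membrane and the other cytoskeleton, at 344 ± 142 CPM in AWA fish and 148 ± 41.0 CPM in FM fish (log2 fold change 1.22, SE 0.31, edgeR adjusted p = 0.0304). Its paralogue pleca had 0.67 (edgeR adjusted p = 0.163) and lmnb1, a lamin of the nuclear envelope, 0.71 (edgeR adjusted p = 0.106), while krt18b, a keratin of simple epithelium in mammals, had -0.32. The median AWA|FM log2 fold change of the 5 was 0.67, beside -0.08 over all genes. Across the 36 intestines plecb had r = 0.48 with vim and 0.61 with itgb3a.

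Of the 12 other integrin genes, all tested in the DI, 1 had a positive estimate in AWA|FM. None was called by edgeR or DESeq2 (2 had an unadjusted p under 0.05). Their median was -0.50, beside -0.08 over all genes, and the share of all genes below 0 was not counted. The positive one was itga11b, named for a collagen-binding subunit, at a log2 fold change of 1.5 (SE 0.83, edgeR adjusted p = 0.253). In the same comparison itgb8 had -1.55, itga6a, named for a laminin-binding subunit, -1.17, itga5, named for the fibronectin-binding subunit, -0.51, and itgb5, which like beta-3 pairs with alpha-v in mammals, -0.36. The estimates of the remaining alpha and beta subunits lay below 0 in AWA|FM, on the other side from itgb3a. The other diets were less one-sided, with 5 of the 12 positive in ICJ|FM (median -0.06) and 4 in ACJ|FM (median -0.14). There were 3 in IWA|FM (median -0.31) and 2 in SBM|FM (median -0.48). In IWA|FM itgae.2 (ENSSSAG00000076346), named for integrin alpha-E, which in mammals anchors intraepithelial T cells to the gut epithelium, fell to 24.4 ± 3.75 CPM in IWA fish, against 48.0 ± 11.3 CPM in FM fish (log2 fold change -0.97, SE 0.22, edgeR adjusted p = 0.0478). The T cell marker sum moved with it, at 19.9 to 35.4 CPM in IWA fish (median 23.4), against 30.6 to 60.8 CPM in FM fish (median 48.4), and its part in the change was not tested. The span of itgae.2 overlaps another gene, and the call was lost with no filter on low counts. Without any 1 of FM fish 6, IWA fish 4 and IWA fish 6, edgeR called 0 genes in IWA|FM, so the call was lost there as well. Across the intestines the r of itgae.2 with itgb3a was -0.52.

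The 9 genes of the integrin adhesion complex, which couples integrins to actin, had a median AWA|FM log2 fold change of 0.05 in the DI and no call by edgeR or DESeq2 (2 at an unadjusted p under 0.05). Talin 1 (tln1), which binds the tail of beta integrins, had 0.05, and the integrin-linked kinase gene ilk 0.31. Of the 4 tested ligand and matrix genes edgeR called none (1 at an unadjusted p under 0.05) and DESeq2 called 1 of 5. Fibronectin (fn1a), a ligand of beta-3 integrins, had -0.97 and periostin (postna) -2.11 (edgeR adjusted p = 0.0855), and the median was -0.78. The 10 wound repair genes all had negative AWA|FM estimates, without a call by edgeR or DESeq2 (4 at an unadjusted p under 0.05). Their median was -0.59, beside -0.08 over all genes, of which the share below 0 was not counted. Among the 10 were mmp9, a matrix protease, at -1.39 (edgeR adjusted p = 0.120), ctgf, a connective tissue growth factor, at -1.03, and tgfb1a, at -0.87. Of the same 10 genes, 4 had positive DI estimates in ICJ|FM (median -0.16), 3 in IWA|FM (median -0.38), 2 in ACJ|FM (median -0.20) and 2 in SBM|FM (median -0.37). In the spleen, 0 genes of the 5 lists were called in any diet|FM comparison by edgeR or DESeq2, with at most 3 genes of a list at an unadjusted p under 0.05.

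Markers of other cell types were read beside both genes in the DI. Over 36 libraries, the T cell sum, for which 2 of 6 listed genes were matched, had r = -0.55 with itgb3a and -0.30 with vim. The enterocyte sum, with 3 of 6 matched and mostly cdh17, had r = 0.51 with itgb3a and 0.25 with vim over the same libraries. The enterocyte sum was 2324 to 2828 CPM in AWA fish (median 2686), against 963 to 2764 CPM in FM fish (median 1531), and the T cell sum 20.6 to 50.7 CPM in AWA fish (median 33.7), against 30.6 to 60.8 CPM in FM fish (median 48.4). The sum for fibroblasts, a main cell type of vimentin in mammals, with 3 of 6 listed genes matched, had r = 0.03 with vim and -0.11 with itgb3a. Of the other leucocyte lists, the B cell gene (1 of 5 matched) had r = -0.45 with itgb3a and -0.30 with vim. The neutrophil sum (2 of 4 matched) had r = -0.33 with itgb3a and -0.35 with vim. It was mostly the gene lyz, whose span overlaps another gene. The macrophage sum (2 of 4 matched) had r = -0.33 with itgb3a and 0.05 with vim. It was the gene cd68 alone, since marco had no counts in any of the 36 DI libraries. The smooth muscle sum had r = 0.13 with vim and 0.19 with itgb3a, and the endothelium sum -0.33 with vim and -0.28 with itgb3a. The part of tissue composition in the diet differences was not tested. Besides itgae.2 and lyz, the spans of pleca, krt18b, itga5, itgb8, tln1, fn1a and tgfb1a overlap another gene. The same holds for the B cell gene and for alas2, epor and slc15a1.

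The genes whose log2 level was most like that of each gene were named from those with a symbol and a mean of at least 1 CPM, by r over the 36 libraries of a tissue. For itgb3a in the DI they were hars (r = 0.81), the histidyl-tRNA synthetase, tcpg (0.79), a chaperonin subunit, rabggta (0.79), a Rab prenylation enzyme subunit, dpp3 (0.78), a dipeptidyl peptidase, and slc6a6b (0.78), a taurine transporter. In AWA|FM, slc6a6b had the largest log2 fold change of the 5 (log2 fold change 1.68, edgeR adjusted p = 0.00957). For vim in the DI they were twf1 (r = 0.83), an actin monomer-binding protein, s38a2 (0.82), a neutral amino acid transporter, klhdc3l (0.81), gadl1 (0.79), a decarboxylase related to taurine-forming enzymes, and atg4b (0.78), a protease of autophagy. In AWA|FM, gadl1 had the largest log2 fold change of these, 5.48 (edgeR adjusted p = 0.00965). Since they were picked for their likeness to itgb3a or vim over the same libraries, their diet differences are a description only. No gene was on both lists, and 9.75% of all genes had r over 0.5 with itgb3a and 8.81% with vim in the DI.

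In the spleen the genes most like vim were parvb (r = 0.88), the integrin-linked adhesion protein beta-parvin, hyal3 (0.86), hacd4 (0.86), ccn1 (0.86), a secreted integrin ligand, and p2rx1 (0.85), an ATP-gated channel of mammalian platelets. For itgb3a they were ccng2 (r = 0.58), cdh2 (0.56), which is N-cadherin, smtnl (0.54), tnfaip6 (0.54) and aven (0.53). The values for vim were higher, and those for itgb3a rest on its 1 to 22 counts per spleen library. The span of parvb overlaps another gene.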

How the data were processed

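RNA-seq was made from the distal intestine and the spleen of 36 fish. The authors trimmed reads with Trim Galore, aligned them with STAR and deposited whole-number counts of read pairs per Ensembl gene from featureCounts (version 1.4.6 in their notes, 1.5.1 in the file headers), reversely stranded, on Ssal_v3.1. RSEM is named in the notes without a role. Normalized values were computed here from these counts.

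CPM used TMM scaling within a tissue, or over both tissues for the tissue comparison, and FPKM also the exon length. Genes passing filterByExpr were fitted with edgeR 4.0.16 (R 4.3.3, limma 3.58.1; robust quasi-likelihood): 36 libraries per tissue with diet as factor, or 72 libraries with fish as a block, with Benjamini-Hochberg adjustment over all genes and a threshold of 0.05. Single genes were also tested by exact permutation, and relations on log2 CPM (prior count 2) by 100000 permutations. Symbols came from RefSeq genes sharing at least 50% of both spans (34189 genes). The scripts were tested on simulated data.

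Both genes and all lists were chosen with earlier results of these data known. In each tissue the 5 genes most like each of the pair by Pearson's r were named, besides list genes that passed the threshold. The study's alternative call rule, a log2 fold change beyond 2 in size, DESeq2 1.42.0, RLE scaling, no filter, tank sums, a replicate block and leaving out each library were tried. Replicate numbers did not pair fish of different diets: deviations of same-numbered libraries had a mean r of -0.01 in the DI and 0.02 in the spleen. Tanks were inferred from fish numbers, 6 per tank. Dietary yeast amounts were not used here, and no sequences were used.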

Additional observations from a re-analysis of the deposited data

Results flagged for a closer look

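In the distal intestine, itgb3a in IWA fish 4 stood apart from the other 5 fish of that diet, at 12.8 CPM (12.7548 before rounding). The next IWA fish had 6.07 CPM. The same library had 127 CPM of vim, the highest of its diet. A gap of this size relative to the range of the group was looked for in 24 groups of 6 fish, and chance gives about 1 in 20.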

How the results depend on the processing

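Of the results that leave out 1 library of a tissue, 1258 kept their direction and side of the threshold, 15 lost a call, 5 gained one and 18 changed sign, all of the last with adjusted p of 0.615 or more. In the DI the adjusted p ranges were 0.0128 to 0.0556 for itgb3a and 0.0265 to 0.0995 for vim in AWA|FM, 0.0403 to 0.183 for itgb3a in IWA|FM (called without ICJ fish 4 or ACJ fish 4), and 0.0186 to 0.0880 for itgb3a and 0.0375 to 0.144 for vim (called without ICJ fish 2, ACJ fish 4 or IWA fish 5) for the mean of the soybean diets. Signs turned for itgb3a in ICJ|SBM (0.811 to 1.00), ACJ|SBM (1.00 to 1), IWA|SBM (0.615 to 0.999), ACJ|ICJ (0.949 to 1) and, in the spleen, ACJ|FM (0.907 to 1.00), and for vim in ACJ|SBM (1.00 to 1) and, in the spleen, IWA|FM (0.910 to 1.00).

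Calls were gained in the DI for itgb3a IWA|FM with tank sums (adjusted p = 0.0222), with only the 12 libraries (0.0321) and with DESeq2 (0.0113), for vim IWA|FM with tank sums (0.0242) and DESeq2 (0.0454), and for vim and the mean of the soybean diets with tank sums (0.0176) and DESeq2 (0.00942). The interaction gained one for vim AWA|FM with DESeq2 and the fish block (0.0336), and for itgb3a and the mean of the soybean diets with no replicate block (0.0411). Calls were lost for vim AWA|FM with no filter (0.0589), with the replicate block (0.0621) and where a log2 fold change beyond 2 was needed (1.93, adjusted p = 0.0359), and for itgb3a and the mean of the soybean diets with the replicate block (0.0636). A replicate number stands for different fish in different diets, so the block was not part of the main fit. The best correlation was with the own number for 8 of 36 DI and 12 of 36 spleen libraries. The block changed no other call. With tank sums, itgb3a ACJ|FM in the spleen turned to -0.02 (adjusted p = 0.998). Relations: vim with itgb3a in the DI had r = 0.35 without 2 fish and 0.18 within diets, and in the spleen -0.34 with RLE scaling, -0.34 with a prior count of 0.5, -0.25 without 2 fish, -0.35 within diets and -0.34 without the fish of ICJ replicate 4, a setting chosen after seeing the data. The lists had 0 calls in place of 1 in IWA|FM with no filter and 2 in place of 1 in AWA|FM with DESeq2. The causes were not tested. DESeq2 called 2666 genes in AWA|FM, where edgeR called 1097. In IWA|FM these numbers were 1028 and 99, and for the mean of the soybean diets 1247 and 627. With tank sums, 1349 of 35019 genes were called in IWA|FM and 2330 for the mean of the soybean diets. With only the 12 libraries, 426 of 29582 were called in IWA|FM. Leaving out each fish of the 72-library fit was not run.

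The counts of itgb3a were low, at 18 to 34 per FM intestine and 1 to 22 per spleen. Each tissue had 6 fish per diet in 3 tanks, FM was shared by all diet comparisons, and symbols were known for few genes, so that duplicate copies and list members without a symbol are not covered.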
